A study of Mus musculus with 8 samples.

Results

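The 9 genes described here encode proteins of tight junctions and of the junctional adhesion molecules that sit beside them. They were chosen by symbol for their known place at the junction, with earlier results of these data known. The members are Tjp1, Cgn, Ocln, Cldn10, Cldn12, F11r, Jam2, Jam3 and Cxadr, and each symbol matched 1 gene. They were 9 of 47729 genes in the neural stem cell (NSC) table and 9 of 40562 genes in the astrocyte table. Tight junctions are belts of membrane contact that limit diffusion between neighbouring cells. Claudins form the strands that set which ions and solutes pass, occludin and the junctional adhesion molecules lie in the same membrane, and scaffold proteins such as ZO-1 tie them to actin. In the brain the tightest junctions join the endothelial cells of the blood-brain barrier, whose signature claudin is Cldn5, while astrocytes meet that wall with their end feet and are not sealed to each other by such belts.

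The study asked how a point mutation in Dmp1, which removes the glycosylation site of dentin matrix protein 1, alters brain cells and the barrier. S89G-DMP1 mice carry this knock-in mutation in the endogenous gene, so every cell type has it, and were compared with wild type (WT) mice, both on C57BL/6. The line was made in embryonic stem cells with a selection cassette flanked by FRT sites and a later cross to FLP mice on B6.129S4. Donors were 10 weeks old by the labels, and slightly older by the methods in the case of astrocytes. NSCs came from the subventricular zone and grew as neurospheres without serum, with 3 libraries per genotype. Astrocytes came from cortex and grew in serum-containing medium, with 1 library per genotype, so no spread could be measured for them. Nothing in the labels said whether the 3 NSC libraries of a genotype were separate cultures or animals, so p-values measure only the spread between these samples, which may be technical. Read totals were 2354615 to 2588130 in the NSC libraries and 13016924 (S89G-DMP1) and 14008670 (WT) in the astrocyte libraries.

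The mutated gene itself had 6, 3 and 5 counts in the S89G-DMP1 and 18, 21 and 16 in the WT NSC libraries, and in astrocytes 119 counts with S89G-DMP1 and 2 with WT, levels that do not show which allele was read. Marker genes were examined before the results, because junction genes differ strongly between cell types. In counts scaled to a common library total with TMM factors (CPM), the library labelled WT astrocytes held little of the astrocyte markers. Their summed level was 117 CPM there against 1043 CPM in the S89G-DMP1 astrocyte library. Of 8 counted markers, 6 were at least 2-fold higher in S89G-DMP1 and 1, S100b, at least 2-fold lower. Aqp4, the water channel of astrocyte end feet, had 8 counts in WT against 4051 in S89G-DMP1. Fibroblast and meningeal markers summed to 6276 CPM in the WT library against 2110 CPM in the S89G-DMP1 library, with 10 of 11 at least 2-fold lower in S89G-DMP1. Foxj1, the factor of ciliated cells, had 6 counts in WT and 3063 in S89G-DMP1, while the other choroid plexus and ependymal markers summed to 1.74 (WT) and 5.42 CPM, a sum that was taken after the values were seen. Of the 9 endothelial markers counted, 3 passed 2-fold upward in S89G-DMP1 and 4 downward, so they did not move as a class. Cldn5 had 0 counts in both astrocyte libraries and in all 6 NSC libraries. In these bulk samples fewer cells of a type and less RNA per cell cannot be told apart, and the astrocyte comparison sets 2 libraries side by side that differ in their markers as well as in genotype.

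The sequence upstream of 2 members is shown because they had the largest ratio between genotypes among the members, Cgn in NSCs and Ocln in astrocytes. Both are from RefSeq on GRCm38.p6, from the minus strand, 5′ to 3′, and end at the base before the gene's start in GENCODE M21, which for Cgn leaves 240 of the 250 bases of the RefSeq window. Capitals mark GGGCGG or its complement CCGCCC, the core of the GC box. The Cgn window is chr3:94786493-94786732 and the Ocln window is chr13:100552719-100552968.
Cgn: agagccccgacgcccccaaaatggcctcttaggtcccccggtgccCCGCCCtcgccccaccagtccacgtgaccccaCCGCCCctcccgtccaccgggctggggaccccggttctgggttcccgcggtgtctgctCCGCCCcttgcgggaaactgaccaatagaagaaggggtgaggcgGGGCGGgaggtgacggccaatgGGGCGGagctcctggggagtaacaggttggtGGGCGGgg
Ocln: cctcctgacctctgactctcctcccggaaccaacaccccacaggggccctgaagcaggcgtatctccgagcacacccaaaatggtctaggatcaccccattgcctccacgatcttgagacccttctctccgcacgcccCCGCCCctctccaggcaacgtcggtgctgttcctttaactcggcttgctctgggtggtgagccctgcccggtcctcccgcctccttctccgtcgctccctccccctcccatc
Cgn had 6 GC boxes in its 250 bases upstream and 70.4% GC, and 0.886% of the 32851 upstream windows of the same length in the RefSeq table held 6 or more. Ocln had 1 GC box in the window shown. A GC box on either strand stood in 8 of 10 windows of the 6 members with an entry, against 32.7% of all windows. The windows of Cldn12 overlap one another, as do those of Ocln, so a match can be counted more than once. The median GC content of all windows was 52.4%. CAGGTG or its complement, the E-box bound by repressors of epithelial genes, stood in 2 of the 10 windows, a second start site of Ocln and that of F11r, against 17.2% of all windows. TATAAA stood in 0 of the 10, against 12.4% of all windows. These matches are letters in a window and were not tested as binding sites.

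All 9 are protein-coding genes, and on GRCm38 Jam2 lies at chr16:84774123-84825928 and Cxadr at chr16:78301489-78359774, both on the plus strand. Tjp1 lies at chr7:65296165-65527781, Cgn at chr3:94760069-94786492 and Ocln at chr13:100496507-100552718, all on the minus strand. Levels per length were taken as CPM per kilobase of exon (RPKM). In RPKM Jam2, which encodes JAM-B, was the highest member in all 4 groups and Tjp1 the next. In the authors' TPM values for NSCs, Tjp1 was above Jam2 by group mean in both genotypes. Tjp1 had a mean TPM of 86.3 in WT and 89.5 in S89G-DMP1, and Jam2 of 78.6 and 71.9. Their order in NSCs thus depends on the measure. In WT NSCs Jam2 stood at 62.3 ± 0.733 RPKM (SD, n = 3), above 96.7% of the genes with a read. Tjp1 followed at 28.9 ± 1.20 RPKM and Cxadr at 27.9 ± 1.17 RPKM, neighbours whose libraries overlapped in WT. In S89G-DMP1 NSCs they did not overlap, at 32.1 ± 1.25 RPKM for Tjp1 and 23.1 ± 2.07 RPKM for Cxadr (SD, n = 3). Jam3 stood at 16.6 ± 0.530 RPKM and Cldn12 at 8.27 ± 1.10 RPKM in WT NSCs. The other 4 members, Cgn, Cldn10, F11r and Ocln, were at 1.07 RPKM or less in every NSC library. Cgn was above the other 3 in every S89G-DMP1 library and overlapped Cldn10 in WT.

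**Figure D1:**
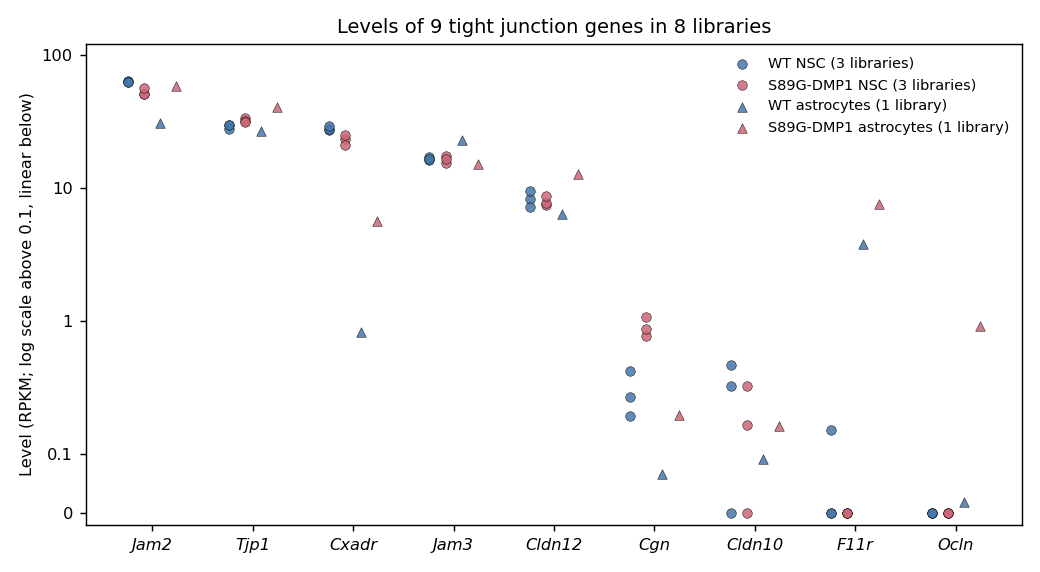
Level of each member per length in every library, in RPKM, on an axis that is logarithmic above 0.1 and linear below. Each point is 1 library, with 3 per genotype for NSCs and 1 per genotype for astrocytes. In RPKM, Jam2 and Tjp1 lead in all groups. Cxadr is high in NSCs and low in the astrocyte libraries, and F11r is seen almost only in the astrocyte libraries.

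The astrocyte libraries came in a separate table, whose program and build are not given, and are set beside the NSCs without a test. Their order was Jam2, Tjp1, Jam3, Cldn12, F11r and Cxadr in both genotypes. In the WT library these were 30.6, 26.7, 23.0, 6.37, 3.77 and 0.822 RPKM. In the S89G-DMP1 library they were 57.7, 40.5, 15.04, 12.7, 7.49 and 5.62 RPKM. Cxadr was therefore at 0.822 and 5.62 RPKM in the astrocyte libraries and between 20.9 and 29.3 RPKM in the NSC libraries. F11r, which encodes JAM-A, had 1 count in 1 of the 6 NSC libraries and 127 and 287 counts in the WT and S89G-DMP1 astrocyte libraries. Microglial markers summed to 631 (WT) and 868 CPM (S89G-DMP1) in the astrocyte libraries and to at most 0.856 CPM in any NSC library. The part of these cells in the F11r counts was not tested.

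Among the scaffold members, Cgn was higher and Tjp1 stayed short of the threshold in S89G-DMP1 NSCs. Cgn encodes cingulin, a cytoplasmic protein that binds ZO-1 and actomyosin. It had 11, 15 and 13 counts in the S89G-DMP1 libraries and 6, 3 and 4 in the WT libraries. All 3 S89G-DMP1 libraries lay above all 3 WT libraries, at 5.42 ± 0.911 against 1.76 ± 0.697 CPM (SD, n = 3). Cgn was 3.04-fold higher, with a 95% interval of 1.70 to 5.45 (log2 fold change 1.61, SE 0.42, edgeR quasi-likelihood test, Benjamini-Hochberg adjusted p = 0.0040). With DESeq2 its adjusted p was 0.125, and its counts were the lowest of the 6 members tested. Cgn passed the count filter only through the S89G-DMP1 libraries, where it is high. In the fit without that filter its edgeR adjusted p was 0.0032.

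Tjp1 encodes ZO-1, the scaffold that gathers claudins and occludin at the membrane. It had 620, 582 and 603 counts in the S89G-DMP1 libraries and 544, 553 and 582 in the WT libraries. In CPM the groups did not overlap, at 250.7 ± 9.74 against 225.5 ± 9.38 (SD, n = 3). The ratio was 1.11 with a 95% interval of 1.02 to 1.21, and the edgeR adjusted p was 0.085, so Tjp1 was not called.

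Of the strand proteins, only Cldn12 was expressed at a level that allowed a test in NSCs, and it did not pass. Ocln, the gene of occludin, had 0 counts in all 6 NSC libraries, where a count of 0 allows up to 3 counts, or 1.17 to 1.28 CPM per library. Cldn10, a claudin that forms ion-selective pores, had 2, 1 and 0 counts in S89G-DMP1 and 2, 0 and 3 in WT, groups that overlap (exact two-sided permutation p = 0.6). Cldn12, a claudin without the usual scaffold-binding tail, had 74, 76 and 92 counts in S89G-DMP1 and 83, 102 and 76 in WT. These groups overlap, with a ratio of 0.959, a 95% interval of 0.797 to 1.15 and an edgeR adjusted p of 0.823.

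Jam2 and Cxadr, both membrane proteins of the immunoglobulin superfamily, were lower in S89G-DMP1 NSCs. JAM-B, the product of Jam2, binds JAM-C across and along membranes. Jam2 had 726, 709 and 839 counts in the S89G-DMP1 libraries and 906, 962 and 938 in the WT libraries. All 3 S89G-DMP1 libraries lay below all 3 WT libraries, at 315.2 ± 18.5 against 376.7 ± 4.43 CPM (SD, n = 3). Jam2 was 1.19-fold lower (log2 fold change -0.26, SE 0.057, edgeR adjusted p = 6.5e-04). It passed the test without any 1 of the 6 libraries, with log2 fold changes from -0.31 to -0.23.

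Cxadr encodes the coxsackievirus and adenovirus receptor, a homophilic adhesion molecule abundant in the developing brain. It had 410, 361 and 461 counts in the S89G-DMP1 libraries and 475, 523 and 542 in the WT libraries. In CPM the groups did not overlap, at 170.7 ± 15.3 against 206.6 ± 8.67 (SD, n = 3). Cxadr was 1.21-fold lower (log2 fold change -0.27, SE 0.068, edgeR adjusted p = 0.0022). Without S89G-DMP1 replicate 2, the lowest library, the adjusted p was 0.067 and the log2 fold change -0.21. In the annotation 9.46% of the exon bases of Cxadr overlap Btg3 and Gm49590 on the opposite strand, and strand use in counting is not given in the sources used here. Btg3 had 0 to 3 counts in the NSC libraries.

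Jam3, the gene of JAM-C, had 117, 129 and 130 counts in S89G-DMP1 and 122, 141 and 132 in WT NSCs. The groups overlap, with a ratio of 0.985, a 95% interval of 0.849 to 1.14 and an edgeR adjusted p of 0.925. Of its exon bases 36.2% overlap Gm48796 on the opposite strand, where reads of the 2 genes cannot be told apart unless strand was used. F11r had 0 counts in 5 NSC libraries and 1 in WT replicate 3. The ratio of Jam2 to Jam3 in RPKM was 2.91 to 3.42 in S89G-DMP1 and 3.61 to 3.93 in WT libraries, ranges that do not overlap by this measure. In the authors' TPM values Jam2 and Jam3 had means of 71.9 and 55.6 in S89G-DMP1 and 78.6 and 71.4 in WT. Those means put the larger ratio in S89G-DMP1, so its direction depends on the measure.

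Across the set, 6 of the 9 members had enough counts to be tested in NSCs, 1 rose (Cgn) and 2 fell (Jam2 and Cxadr), where 15.8% of the 11194 genes tested were called, 7.08% higher and 8.76% lower. Cgn entered this tally only through its counts in the S89G-DMP1 libraries. In 4 of the 6 the groups of 3 libraries did not overlap, against 30.7% of all genes tested (14.8% with S89G-DMP1 higher and 16% with it lower). For each of these 4 the exact two-sided permutation p was 0.1, the smallest that 3 libraries against 3 allow. The median log2 fold change of the 6 was -0.04, and that of all genes tested was 0.0026.

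**Figure D2:**
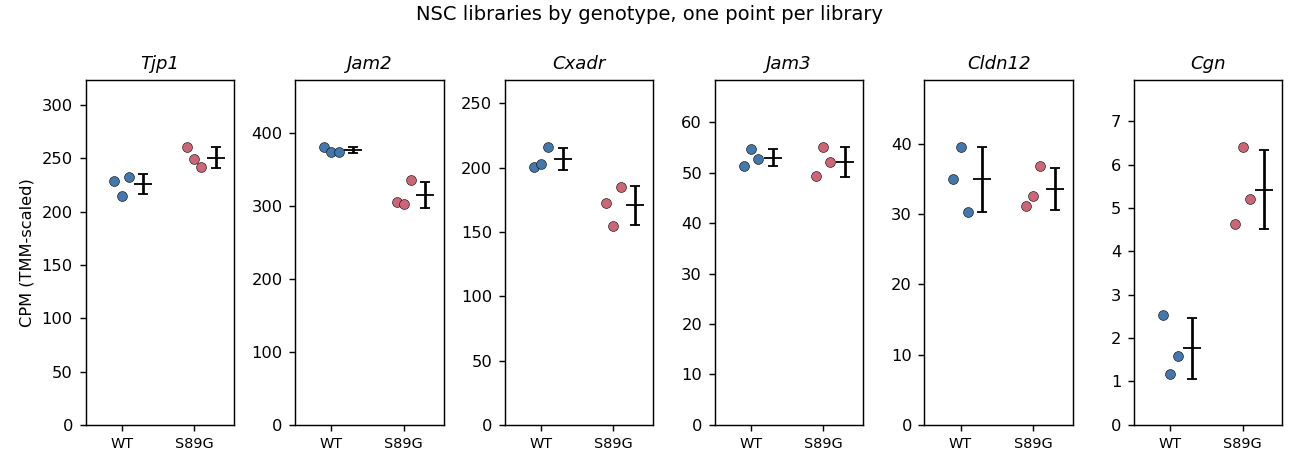
CPM of the 6 tested members in NSCs, 1 point per library, with a horizontal line for the mean and an error bar for the SD (n = 3 per genotype). Jam2 and Cxadr are lower and Tjp1 and Cgn higher in every S89G-DMP1 library, while Cldn12 and Jam3 overlap.

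The genes that moved most nearly in parallel with the 3 called members over the 6 NSC libraries were listed as a description, by Pearson's r of log2 CPM. The points share their libraries and the genotype contrast. Nearest to Cgn were Ptbp2 (r = 0.996), Prpf38b (r = 0.995) and Utp20 (r = 0.994). Among the nearest to Cxadr were Irs2 (r = 0.998) and Arid5a (r = 0.989), and among the nearest to Jam2 were St5 (r = 0.999) and Syt6 (r = 0.997).

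In astrocytes 8 of the 9 members had at least 10 counts in either library. Their levels were higher in the S89G-DMP1 library for 7 and lower for Jam3, by values without a replicate check and with intervals that cover counting error only. Printed ratios were TMM-scaled (trimmed mean of M values) with no prior count, and log2 ratios and the 2-fold line used a prior count of 2. Jam2 had 5022 counts in S89G-DMP1 and 2341 in WT, a ratio of 1.89 (counting interval 1.80 to 1.98). Tjp1 had 4560 and 2637 counts, a ratio of 1.52 (1.45 to 1.60). Both were thus higher in the S89G-DMP1 library by less than 2-fold after TMM scaling.

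Cxadr had 599 counts in the S89G-DMP1 astrocyte library and 77 in WT, a ratio of 6.84 (5.39 to 8.79). Btg3, its opposite-strand neighbour, had 222 and 475 counts. Ocln had 56 counts in S89G-DMP1 and 1 in WT, a ratio of 49.3 whose counting interval runs from 8.49 to 1980. Cgn had 17 and 5 counts, a ratio of 2.99 (1.06 to 10.4). These 3 members were at least 2-fold higher in the S89G-DMP1 library and 0 were 2-fold lower, where 30.1% of the 15680 genes counted passed 2-fold, 17.3% higher and 12.8% lower. Ocln and Cgn reached the required 10 counts only in the S89G-DMP1 library, so they entered this tally through the library where they are high.

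Cldn12 had 773 and 341 counts, a ratio of 1.99 (1.75 to 2.27), and F11r had 287 and 127, a ratio of 1.99 (1.61 to 2.47). Both lay just under the 2-fold line, and with scaling by library size alone 6 members passed it, Cldn12, F11r and Jam2 among them. That scaling moved the median log2 ratio of all genes from 0.01 to 0.30. Jam3 had 693 counts in S89G-DMP1 and 931 in WT, 1.53-fold lower. Cldn10 had 6 and 3 counts, a ratio of 1.76 (0.376 to 10.9). The members' median log2 ratio was 0.99, that of all genes counted 0.01.

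**Figure D3:**
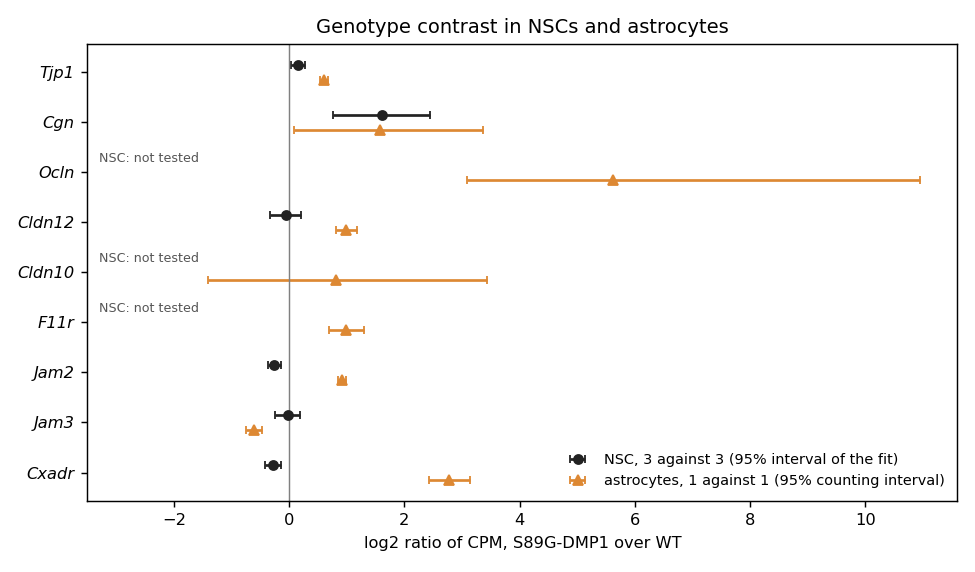
Ratio of S89G-DMP1 to WT for each member on a log2 scale, in NSCs (circles, 3 libraries against 3, bars the 95% interval of the edgeR fit) and in astrocytes (triangles, 1 library against 1, bars the 95% counting interval). Jam2 and Cxadr lie left of 0 in NSCs and right of 0 in astrocytes, and Cgn lies right of 0 in both.

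Beside these ratios the markers of other cell types also differed. Neural progenitor markers summed to 733 CPM in the WT and 2081 CPM in the S89G-DMP1 astrocyte library, and oligodendrocyte markers to 21.2 and 269 CPM. Mural markers summed to 1971 (WT) and 2757 CPM (S89G-DMP1), but without Acta2 to 1248 and 289 CPM. In the astrocyte libraries the endothelial markers summed to 204 (WT) and 108 CPM (S89G-DMP1), but without Cdh5, the endothelial cadherin with 1917 and 23 counts, to 52.5 and 106 CPM. Slco1a4, an endothelial transporter, had 95 counts in WT and 491 in S89G-DMP1, Kdr had 76 and 184, and Flt1 had 404 and 790. Going the other way, Pecam1 had 16 counts in WT and 7 in S89G-DMP1, Tek 32 and 17, Emcn 28 and 12, and Egfl7 11 and 7. The epithelial markers summed to 11.9 (WT) and 10.7 CPM (S89G-DMP1), with Cdh1, the epithelial cadherin, at 4 and 102 counts, the keratin Krt19 at 146 and 49, and Krt8 at 0 in both. In NSCs 5 to 7 of the 11 endothelial markers were at 0 in each library, Cldn5 in all of them. Flt1, a receptor of endothelial growth factor, was the 1 endothelial marker tested and rose by 1.79 on the log2 scale. The endothelial markers summed to 5.99 to 8.85 CPM in WT and 10.3 to 14.3 CPM in S89G-DMP1, and without Flt1 to 4.39 to 8.01 and 5.14 to 7.58 CPM, ranges that overlap. The astrocyte markers summed to 1470 to 1518 CPM in WT and 1991 to 2043 CPM in S89G-DMP1, and 3 of 6 tested rose. Without Aldh1l1, the gene with the largest difference, these sums were 1171 to 1208 CPM in WT and 1361 to 1412 CPM in S89G-DMP1. The sums without 1 gene were also taken after the values were seen. Their part in the members' differences was not tested.

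The wider junction and barrier genes, 86 matched symbols in 6 lists, were called in NSCs at a share near that of all genes. Of 46 tested, 6 rose and 3 fell by edgeR, or 19.6% against 15.8% of all genes tested, and their median log2 fold change was -0.0057. The other 22 claudins had 0 genes with enough counts to test, and 15 of them had 0 counts in all 6 libraries. Among membrane proteins Ildr2, an angulin of tricellular contacts, rose 1.70-fold (26.5 ± 2.94 to 45.1 ± 0.918 CPM, SD, n = 3, edgeR adjusted p = 6.4e-06), the 1 call among 3 tested.

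Of 17 scaffold genes 2 rose and 2 fell. Afdn, which encodes afadin and links nectins to actin, fell 1.42-fold (193.4 ± 14.7 to 136.0 ± 9.57 CPM, SD, n = 3, edgeR adjusted p = 6.8e-08), the smallest adjusted p of the lists. Amot, an actin- and polarity-binding angiomotin, rose 1.40-fold (edgeR adjusted p = 0.0011), and its relative Amotl2 fell 1.39-fold (edgeR adjusted p = 0.036). Ybx3, a Y-box factor that binds ZO-1, rose 1.15-fold (edgeR adjusted p = 0.015). In the polarity list 0 of 9 genes passed edgeR's threshold, with 2 at an unadjusted p under 0.05, and DESeq2 called 0 of 10.

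Of 10 adherens junction and catenin genes 1 passed, Ctnna2, a neural alpha-catenin that rose 1.53-fold (edgeR adjusted p = 0.024). Of 7 transport genes of the blood-brain barrier 2 rose and 1 fell. Slc16a1, a monocarboxylate transporter, rose 1.33-fold (64.1 ± 2.87 to 85.3 ± 2.83 CPM, SD, n = 3, edgeR adjusted p = 7.2e-04), and Slc7a5, an amino acid transporter, rose 1.15-fold (edgeR adjusted p = 0.011). Plvap, a protein of fenestrated endothelium, fell 1.47-fold (edgeR adjusted p = 0.0026). Amotl2 lost its call without S89G-DMP1 replicate 1, WT replicate 2 or WT replicate 3, and Ybx3 without S89G-DMP1 replicate 2 or WT replicate 2. Ctnna2 lost its call without S89G-DMP1 replicate 2 or 3 or WT replicate 1, and Slc7a5 without S89G-DMP1 replicate 1 or 2 or WT replicate 2. The edgeR adjusted p rose to at most 0.357 in these fits. The 4 genes kept their direction in them, and of the 9 genes DESeq2 called Ildr2, Slc16a1 and Afdn. Its adjusted p was 0.053 for Amot and 0.104 for Plvap.

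**Figure D4:**
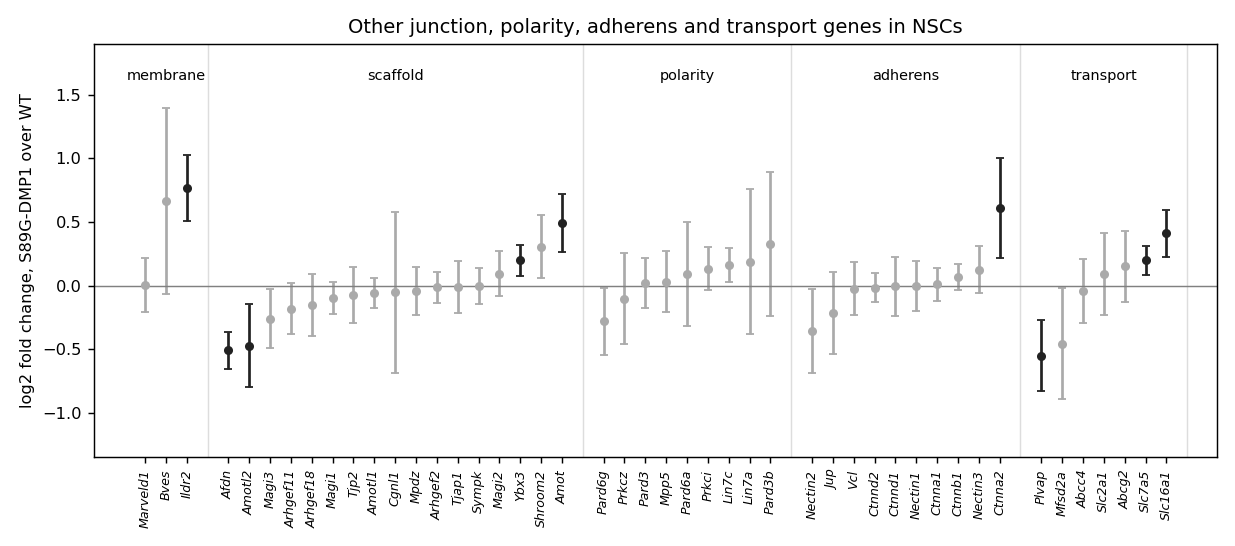
Log2 fold change of S89G-DMP1 over WT in NSCs for the tested genes of the wider junction and barrier lists, grouped by list, with bars for the 95% interval and dark points for genes past an edgeR adjusted p of 0.05. Of the 46 genes 9 are dark, 6 above and 3 below 0, and no polarity gene is.

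In the astrocyte libraries 61 of the 86 were counted, 14 at least 2-fold higher in S89G-DMP1 and 10 at least 2-fold lower (23.0% and 16.4%, against 17.3% and 12.8% of all genes). By library size alone the split was 21 higher and 6 lower. Among claudins Cldn1, a sealing claudin of epithelia, had 251 counts in S89G-DMP1 and 23 in WT, and Cldn19 had 219 and 1. Among scaffold genes Cgnl1, the cingulin relative paracingulin, was 17.7-fold lower in S89G-DMP1 (1279 and 19911 counts), opposite in direction to Cgn in the same libraries. Magi1 was 2.06-fold higher and Magi2 2.06-fold lower.

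Of the 6 other membrane genes counted, 3 passed 2-fold downward and 2 upward, Lsr (25 and 4 counts) and Bves (30 and 12 counts), these 2 named after their values were seen. Clmp, a relative of Cxadr, was 9.19-fold lower (114 and 922 counts), Esam 6.06-fold and Marveld1 2.11-fold lower. In the polarity list Crb2, an apical determinant, had 1458 counts in S89G-DMP1 and 21 in WT, and Pard6b had 122 and 6, while Prkcz was 5.07-fold and Pard6g 2.31-fold lower. The neural catenins Ctnna2 and Ctnnd2 were 15.7-fold and 7.03-fold higher. In the transport list Mfsd2a, a lipid transporter, had 467 counts in S89G-DMP1 and 10 in WT and Slc16a1 was 5.36-fold higher. The efflux pumps Abcb1a, Abcg2 and Abcc4 were 29.4-fold, 3.27-fold and 2.37-fold lower.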

How the data were processed

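Gene counts as deposited by the authors were used for both cell types, with the authors' FPKM (astrocytes) and TPM (NSCs) values used in alternatives only. The submitters' processing notes name Bowtie2 2.0.6 and TopHat2 2.0.9, which the methods give for alignment, and HISAT2, StringTie, featureCounts and GRCm38, without roles. The program and build behind the astrocyte counts, and strand use in counting, are not given in the sources used here. Groups were taken from the sample titles.

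NSC counts were tested with edgeR 4.0.16 in R 4.3.3 (filterByExpr, TMM factors, quasi-likelihood test, Benjamini-Hochberg adjustment over 11194 genes, threshold 0.05). Astrocyte libraries, 1 per genotype, were compared without a test as ratios of CPM after TMM scaling, with a prior count of 2 for log2 ratios and the 2-fold line and none for the printed folds, over the 15680 genes that reached 10 counts in at least 1 of them. Folds against 1 to 3 counts were given as ratios with exact 95% counting intervals, which cover counting error only. Levels per length used union exon lengths from GENCODE M21 on GRCm38. The deposited tables had 0 columns that matched no sample.

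The members and the wider lists were chosen with earlier results of these data known. The text names all 9 members, the wider-list genes called in NSCs, the wider-list astrocyte genes at least 2-fold different that reached 50 counts (at most 6 per list), defining cell type markers, and the 3 genes nearest in pattern to each of the 3 members with the largest NSC fold change, of which 2 are not reported here. Of 180 listed symbols 1 had no match. Alternatives were RLE factors, library size alone, DESeq2 1.42.0, other count filters, limma 3.58.1 on log2(TPM + 1), log2 of FPKM, other thresholds and each library left out. On simulated NSC counts for 11095 genes, edgeR called 89 of 99 genes set to a log2 change of 1, 72 of 100 set to 0.5 and 12 of 10896 left unchanged. RefSeq promoter entries were used for 6 of the 9 members.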

Additional observations from a re-analysis of the deposited data

Results flagged for a closer look

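For Jam2 the genotype contrast pointed one way in NSCs and the other way in astrocytes, with a log2 fold change of -0.26 in NSCs (lower in all 3 S89G-DMP1 libraries) and a log2 ratio of 0.92 in the single pair of astrocyte libraries. Cxadr showed the same opposition, at -0.27 in NSCs and 2.75 in astrocytes. The difference between the cell types was not tested, since each astrocyte genotype has 1 library and the processing behind the astrocyte table is not given. In the same pair of astrocyte libraries the summed level of the astrocyte markers was 1043 CPM for S89G-DMP1 against 117 CPM for WT, and their part in either ratio was not tested.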

How the results depend on the processing

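Precision rests on 2354615 to 2588130 counted reads per NSC library and on 1 astrocyte library per genotype. Of the members called in NSCs, the 1 higher became 0 with DESeq2, with at least 10 counts in every library (where Cgn was not tested) and with limma on log2(TPM + 1), and the 2 lower became 0 with limma on TPM, where 2 of 6 members had an unadjusted p under 0.05. Leaving out each library gave 1 higher throughout and 1 to 2 lower, the lower value without S89G-DMP1 replicate 2, where Cxadr lost its call. In the wider lists 6 higher and 3 lower became 2 and 1 with DESeq2 and 0 and 0 with limma on TPM (6 of 52 at an unadjusted p under 0.05), and 3 to 6 and 2 to 4 with each library left out, the 3 without S89G-DMP1 replicate 2. Over all genes 792 higher and 981 lower became 313 and 422 with DESeq2, 32 and 70 with limma on TPM, and 571 to 733 and 770 to 926 with each library left out. Signs turned for genes near 0 or in TPM: Cldn12 to 0.14 (limma on TPM) and, with each library left out, -0.154 to 0.040 (positive without WT replicate 2), Jam3 to a range of -0.063 to 0.019 (positive without S89G-DMP1 replicate 1 and, at 0.00068, without WT replicate 2), Cxadr to 0.068 and Slc7a5 to -0.19 (both limma on TPM). Astrocyte members at least 2-fold higher went from 3 to 6 by library size alone, 5 with log2(FPKM + 1), 6 with log2(FPKM + 0.1) and 7 at 1.5-fold, and those lower from 0 to 1 at 1.5-fold. In the wider lists 14 higher became 9 with at least 50 counts, and 10 lower became 6 by library size alone and with either FPKM setting. Over all genes 2010 lower became 1020 with log2(FPKM + 1). The cause was not tested. Other settings kept these counts within 1.5 times.

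Replicate numbers are shared between genotypes, but same-numbered libraries did not deviate together (correlations of deviations 0.026, -0.012 and -0.018), so they were not taken as pairs. With the number as a replicate block the members called stayed at 1 higher and 2 lower (log2 fold change of Cgn 1.61, of Jam2 -0.26, of Cxadr -0.28), the wider lists at 6 and 3, and all genes went to 829 and 1016.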

Other observations

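In the authors' TPM values, Cxadr did not follow its counts. TPM was 16.1, 85.6 and 81.4 in the 3 S89G-DMP1 NSC libraries and 90.5, 43.7 and 25.0 in the 3 WT libraries, a highest-to-lowest ratio of 5.60, where CPM from counts gave 1.40. Among 604 genes with a mean of 400 to 600 counts and TPM above 0 in every library, the median TPM ratio was 1.30 and 0.828% had a ratio at least that of Cxadr. Jam3 also differed between the measures, with TPM of 46.8, 53.5 and 66.4 in S89G-DMP1 below 72.5, 70.7 and 71.1 in WT, while its CPM overlapped. Jam2 and Tjp1, whose groups did not overlap in CPM, overlapped in TPM, with Jam2 at 84.6, 66.8 and 64.2 in S89G-DMP1 and 85.8, 85.6 and 64.6 in WT, and Tjp1 at 93.7, 88.1 and 86.7 in S89G-DMP1 and 85.8, 87.8 and 85.3 in WT. F11r had a TPM of 2.03 in WT replicate 3, where it had 1 count. Cgn was higher in S89G-DMP1 in both measures, with TPM of 2.93, 3.18 and 2.55 against 1.23, 0.616 and 0.773.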
